A study of Mus musculus with 24 samples.

Results

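The regions described here are the centromere-proximal 5 Mb of the 19 mouse autosomes in the mm10 assembly. They were chosen with earlier results of these data known, and were defined by position. Every 100 kb bin between 3 and 8 Mb of chromosomes 1 to 19 in a genome-wide table of read counts was taken. This gives 50 bins per chromosome and 950 of the 27268 bins in all. Of these, 250 lie on the 5 chromosomes that carry nucleolar organisers (12, 15, 16, 18 and 19) and 700 on the other 14 autosomes, and the rest of the autosomes holds 23689 bins. The read counts came from chromatin immunoprecipitation sequencing of gH2AX and of H2AX, with input chromatin, in primary mouse embryonic fibroblasts of the C57BL6 strain. The compared groups were SIRT7-knockout (KO) female, wild-type (WT) female, KO male and WT male fibroblasts, and each group had 2 libraries for each of gH2AX, H2AX and input, 24 libraries in 12 groups. All of them, KO and WT alike, had received 5 Gy of X-rays and recovered for 30 min, and no unirradiated library was analysed here. The labels do not say whether the libraries of a group came from different cultures or embryos, so the p-values given here cover the spread between these libraries only.

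H2AX is a variant of histone H2A that is present in part of the nucleosomes, and its phosphorylated form, gH2AX, spreads along chromatin on both sides of a DNA double-strand break. SIRT7 is an NAD-dependent deacetylase that concentrates in nucleoli, binds chromatin of the ribosomal RNA genes and is recruited to breaks. Mouse autosomes have their centromere at one end, made of tandem satellite DNA that the assembly leaves as a gap. On nucleolar organiser chromosomes the ribosomal RNA gene arrays lie between that satellite DNA and the unique sequence counted here, so that the bins described are the nearest assembled neighbours of both.

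Of the 950 bins, 947 passed the filter on low counts and were fitted. The first bins of chromosome 10 (chr10:3000001-3100000) and chromosome 11 (chr11:3000001-3100000) had at most 1 and 8 reads in any library, and the bin chr19:6700001-6800000 had 0 reads in every library. Total reads per library ranged from 84.5 to 212.2 M reads for gH2AX libraries, from 66.9 to 250.2 M reads for H2AX libraries and from 92.4 to 269.3 M reads for input libraries, and the 950 bins held between 4.90% and 5.09% of them. The share of reads on chromosome X matched the labelled sex, with 5.77% to 5.93% in female and 3.12% to 3.30% in male libraries. The bin with the Sirt7 locus (chr11:120600001-120700000) did not differ between KO and WT input, at a log2 change of 0.0059 in females and -0.0016 in males. The neighbouring bin (chr11:120500001-120600000) was higher in KO input, by 0.79 ± 0.03 in females and 0.86 ± 0.03 in males on the log2 scale, with adjusted p = 3.88e-53 and 6.39e-56 in edgeR's quasi-likelihood test. The 2 genotypes therefore differed in input DNA next to the gene, and the labels do not say how the allele was made.

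The sequences that the results return to are given from RefSeq on the GRCm38.p6 build, 5′ to 3′. The first pair is shown because the bin with the most reads, the first of chromosome 9, holds a single annotated gene, the microRNA Mir101c (chr9:3038680-3038698, minus strand). The 19 bases of its mature sequence lie whole within mmu-miR-101a-3p of chromosome 4, starting at base 2 of it, and capitals mark the seed, bases 2 to 8.
mmu-miR-101c: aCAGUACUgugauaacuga
mmu-miR-101a-3p: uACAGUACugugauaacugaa
The next pair is shown because bins with many genes and CG-rich promoters had, in the median, more H2AX and gH2AX than bins without. The bin of the CG-poor promoter of the pair, Rbfox1, does not follow this order for H2AX. There every H2AX library was well above every input library, as given below. Capitals mark CG dinucleotides, the motif searched, which reads the same on both strands. The promoter of Dnmt3a (chr12:3806730-3807029, plus strand), the gene of a de novo DNA methyltransferase, holds 46, and 1.65% of the 32851 mouse promoters of this length hold at least as many. The promoter of Rbfox1 (chr16:5884543-5884842, plus strand), a neuronal splicing regulator, holds 3, and 31.4% hold at most as many. The median promoter holds 7, and 94.6% hold at least 1.
Dnmt3a: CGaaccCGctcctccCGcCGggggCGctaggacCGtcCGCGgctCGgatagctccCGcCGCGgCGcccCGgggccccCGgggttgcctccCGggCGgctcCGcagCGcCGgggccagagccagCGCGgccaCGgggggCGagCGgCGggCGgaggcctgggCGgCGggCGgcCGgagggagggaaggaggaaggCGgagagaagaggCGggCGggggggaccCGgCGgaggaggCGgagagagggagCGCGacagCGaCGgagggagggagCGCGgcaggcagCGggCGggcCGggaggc
Rbfox1: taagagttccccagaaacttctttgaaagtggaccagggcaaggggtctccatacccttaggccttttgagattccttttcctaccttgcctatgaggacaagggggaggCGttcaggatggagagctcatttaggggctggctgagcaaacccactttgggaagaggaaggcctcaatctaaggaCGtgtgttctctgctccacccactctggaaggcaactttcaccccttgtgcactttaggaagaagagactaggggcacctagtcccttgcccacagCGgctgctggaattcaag
The last is shown because the proximal end of chromosome 14 is repetitive. It was picked as the most alike pair of promoters from different chromosome 14 bins with more than 2 times the median input. The promoters of Gm8108 (chr14:4111764-4112063, plus strand) and Lamtor3-ps (chr14:6425573-6425872, minus strand) differ at 0 of 300 positions, so the sequence below belongs to both, and it holds 8 CG.
Gm8108: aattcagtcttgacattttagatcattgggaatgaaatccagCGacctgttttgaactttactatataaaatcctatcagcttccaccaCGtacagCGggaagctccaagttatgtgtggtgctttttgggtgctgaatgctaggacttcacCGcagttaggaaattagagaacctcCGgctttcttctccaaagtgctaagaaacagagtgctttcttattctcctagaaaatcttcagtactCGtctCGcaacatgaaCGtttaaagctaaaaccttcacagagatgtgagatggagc

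Near the centromeres of nucleolar organiser chromosomes, irradiated fibroblasts carried more H2AX and more gH2AX over input than near the centromeres of the other autosomes. In edgeR's quasi-likelihood test over all bins, gH2AX was higher than input at an adjusted p under 0.05 in 142 and lower in 68 of the 249 fitted bins of nucleolar organiser chromosomes, against 260 higher and 315 lower of the 698 on the other autosomes. Over all bins of the genome 86.6% differed between gH2AX and input, 41.5% higher and 45.2% lower, so the number of differing bins was no greater near the centromeres (785 of 947), and what set the nucleolar organiser chromosomes apart was the direction. The median log2 ratio of gH2AX to input was 0.058 on them, -0.015 on the others and -0.0084 in the rest of the autosomes. For H2AX against input, where 89.4% of all bins differed, 44.9% higher and 44.5% lower, 158 bins of nucleolar organiser chromosomes were higher and 65 lower (median 0.11), and 310 bins of the others were higher and 316 lower (median -0.0072).

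The same contrast was taken within each library, as the mean log2 CPM (read counts scaled to the normalised size of the library) of bins on nucleolar organiser chromosomes minus that of the other autosomes. For gH2AX it was 0.066 and 0.065 in KO females, 0.086 and 0.072 in WT females, 0.101 and 0.095 in KO males, and 0.051 and 0.044 in WT males. For H2AX it lay between 0.091 and 0.102 in the 8 libraries, and for input between -0.024 and -0.011. Every gH2AX and every H2AX library was above every input library, and the H2AX libraries varied among themselves much less than the gH2AX libraries. The gH2AX mean was 0.073 ± 0.020, the H2AX mean 0.098 ± 0.004 and the input mean -0.018 ± 0.004 (SD, n = 8 libraries each). The differences of 0.091 for gH2AX minus input and 0.116 for H2AX minus input had p = 1.55e-04 in a two-sided exact permutation test, the smallest p that 8 against 8 libraries allow, and 4.66e-04 after Benjamini-Hochberg adjustment over 18 such tests. Such tests, here and below, exchange libraries and not chromosomes or bins, so their p does not measure the spread among chromosomes. They also count the 2 libraries of a group as separate values, although these lay close together in gH2AX. The difference of gH2AX minus H2AX was -0.025 (exact permutation p = 0.00435, adjusted 0.00979), so relative to H2AX there was on average slightly less, not more, gH2AX on the nucleolar organiser chromosomes, although it shrank to -0.0085 when reads were summed over bins and to -0.0097 without chromosome 16. The lower gH2AX was seen in KO females and in WT of both sexes. KO males did not show it, with 0.101 and 0.095 for gH2AX against 0.101 and 0.091 for H2AX.

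**Figure D1:**
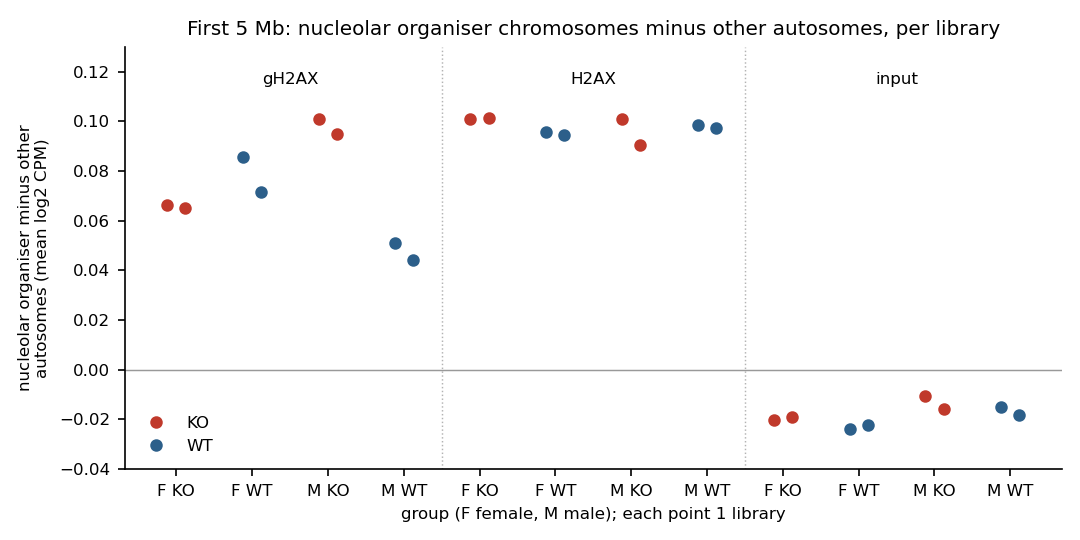
Mean log2 CPM of nucleolar organiser bins minus that of the other autosomes within the centromere-proximal 5 Mb (y axis, log2), 1 point per library, by antibody or input, sex and genotype (F female, M male; red KO, blue WT). The gH2AX libraries spread from 0.044 (WT male) to 0.101 (KO male), the H2AX libraries lie between 0.091 and 0.102, and the input libraries between -0.024 and -0.011.

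A single chromosome carried much of this contrast. The proximal 5 Mb of chromosome 19 had the highest gH2AX over input of the 19 autosomes, with a median log2 ratio of 0.37 and 43 bins higher and 5 lower of 49, and the highest H2AX over input, with a median of 0.39 and 49 of 49 bins higher. The other nucleolar organiser chromosomes had gH2AX medians of 0.071 (16), 0.036 (18), 0.012 (12) and -0.005 (15), which lie inside the range of the other autosomes. Among those, chromosome 11 (0.30), chromosome 17 (0.19) and chromosome 2 (0.14) were high, and chromosome 8 (-0.15), chromosome 3 (-0.12) and chromosome 1 (-0.12) were low. H2AX over input was lowest on chromosome 8 (-0.26) and chromosome 3 (-0.23), and on chromosome 15 it was below 0 as well (-0.082). Without chromosome 19 the contrast with the other autosomes was 0.039 for gH2AX minus input and 0.054 for H2AX minus input, and without chromosome 15 it was 0.121 and 0.168. Both differences to input kept their sign with each of the 5 chromosomes left out in turn.

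**Figure D2:**
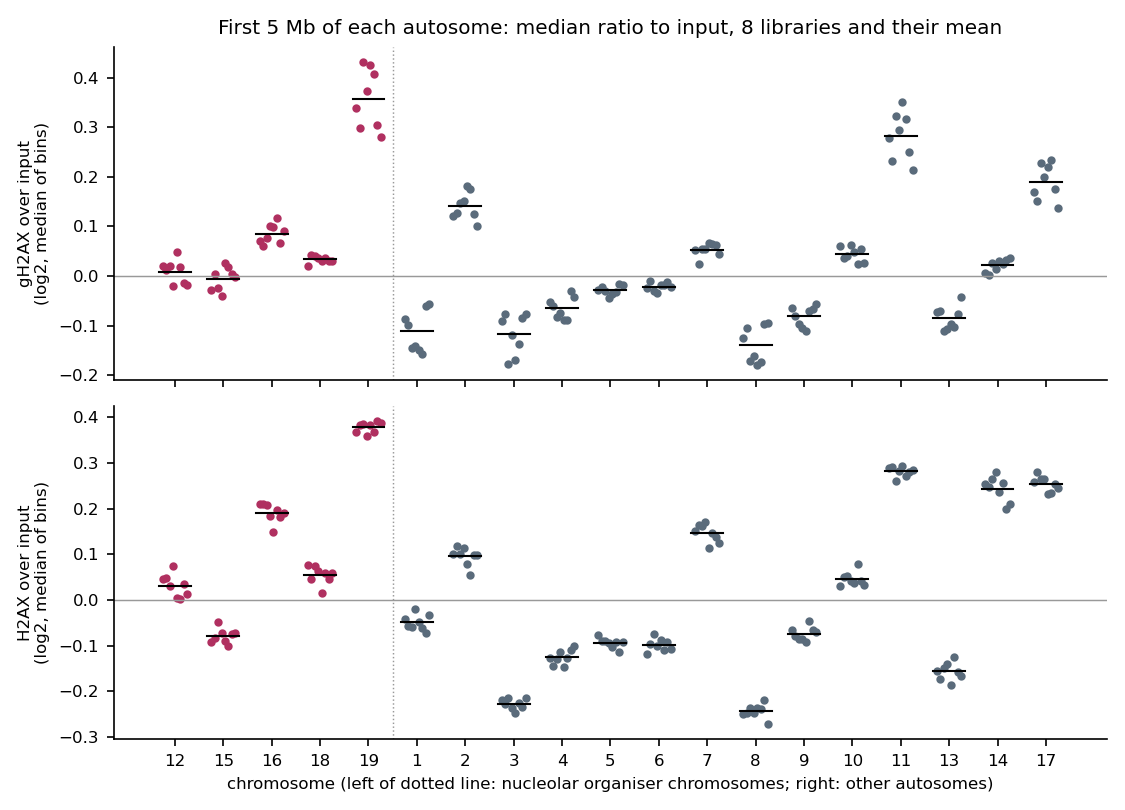
Median log2 ratio to input over the proximal bins of each autosome (y axis) for gH2AX (top) and H2AX (bottom), with 1 point per library (8 libraries), their mean as a bar, and nucleolar organiser chromosomes left of the dotted line. Chromosome 19 is highest in both, at 0.281 to 0.431 for gH2AX and 0.359 to 0.392 for H2AX, while chromosomes 12, 15, 16 and 18 lie within the range of the other autosomes.

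Chromosome 19 was also the most gene-rich, with the midpoints of 183 of the 868 protein-coding genes in the 950 bins, against 122 on chromosome 7, 82 on chromosome 11 and 80 on chromosome 14, and only 7 on chromosome 3 and 14 on chromosome 1. Nucleolar organiser chromosomes held 1.18 protein-coding genes per bin, the other autosomes 0.819 and the rest of the genome's autosomes 0.836. Both marks followed gene number. The median log2 ratio of gH2AX to input was -0.072 in bins with no protein-coding gene, 0.051 with 1, 0.079 with 2, 0.27 with 3 to 4 and 0.46 with 5 or more. For H2AX to input these medians were -0.063, 0.11, 0.21, 0.28 and 0.46. Across the 947 bins, which share the same libraries, Spearman's rho with gene number was 0.525 for gH2AX and 0.520 for H2AX over input, and it was 0.498 and 0.489 in the rest of the autosomes. An alternative added after the data had been seen compared bins within classes of 0, 1, 2 and 3 or more protein-coding genes. The contrast of nucleolar organiser and other chromosomes was then 0.081 for gH2AX minus input and 0.104 for H2AX minus input. The last class joins bins of 3 to 4 and of 5 or more genes, so gene number was not fully matched.

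Promoter sequence sorted the bins in the same order. In the 193 bins with a promoter of at least 20 CG, a class that 26.5% of all mouse promoters meet, the median log2 ratio of gH2AX to input was 0.25, with 163 bins higher and 6 lower, much as in the same class in the rest of the autosomes (3953 higher and 370 lower of 4755, median 0.20). It was 0.0058 in the 280 bins whose promoters all had fewer, and -0.071 in the 474 bins with no promoter, of which 125 were higher and 273 lower. The Dnmt3a bin (chr12:3800001-3900000), whose promoter is printed above, had the second highest gH2AX over input of all 947 bins, at 0.71 ± 0.02 on the log2 scale (fitted value ± SE, adjusted p = 1.42e-107), and an H2AX over input of 0.64 ± 0.02. Its gH2AX was 56.2 and 54.9 CPM in KO females, 57.4 and 56.7 in WT females, 58.7 and 59.5 in KO males, and 52.7 and 50.4 in WT males. Its H2AX lay between 48.9 and 55.3 CPM and its input between 32.7 and 35.1 CPM, so that no immunoprecipitated library overlapped any input library.

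Other bins with genes were high too, but so were bins without a protein-coding gene. Among the latter, chr3:5800001-5900000 had the highest gH2AX over input (1.66 ± 0.02), and chr6:3200001-3300000 had 0.67 ± 0.02. Bin chr16:3900001-4000000, with Nlrc3, Cluap1 and Slx4, the last a scaffold of nucleases that cut branched DNA during repair, had a gH2AX over input of 0.69 ± 0.02. Bin chr19:7100001-7200000, with Macrod1, Flrt1 and Otub1, a deubiquitinase that restrains ubiquitin signalling at breaks, had 0.67 ± 0.02. The highest H2AX over input was in bins on chromosome 17 with Rps6ka2, a ribosomal S6 kinase (0.74 ± 0.02), and Tiam2, an activator of the GTPase Rac (0.73 ± 0.02). It was followed by the chromosome 19 bin with Pcnx3, Sipa1 and Map3k11 (0.66 ± 0.02) and the chromosome 11 bin with the tumour suppressor Nf2 (0.64 ± 0.02). Apart from a bin of very high input on chromosome 12 that is described below, the lowest values came from bins without an annotated protein-coding gene on chromosome 8 (gH2AX -0.30 ± 0.02 at chr8:5800001-5900000) and chromosome 13 (H2AX -0.56 ± 0.02 at chr13:5300001-5400000). None of the 45 genes of a list for break signalling and the nucleolus, which does not hold Slx4 or Otub1, lies in these bins.

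Enrichment fell with distance from the centromeric end. The median log2 ratio of gH2AX to input was 0.066 in the first Mb, 0.020 in the second, 0.026 in the third, -0.009 in the fourth and -0.072 in the fifth, and bins higher than input went with it, at 107, 88, 93, 65 and 49. For H2AX over input the medians were 0.13, 0.043, 0.0036, -0.035 and -0.039. Nucleolar organiser chromosomes did not have their highest gH2AX next to the end: their medians were 0.077, 0.20, 0.12, 0.025 and -0.024, while those of the other autosomes were 0.064, -0.024, -0.014, -0.017 and -0.090. Their H2AX medians were 0.17, 0.20, 0.18, 0.042 and 0.039, against 0.11, -0.0074, -0.039, -0.053 and -0.072 on the other autosomes. In both marks the separation was widest in the second and the third Mb. Between 8 and 13 Mb, just outside the chosen bins, the medians over all autosomes were -0.033 for gH2AX and -0.017 for H2AX. Protein-coding genes numbered 192 in the first Mb, 237 in the second, 177 in the third, 155 in the fourth and 107 in the fifth. An alternative added after the data had been seen took the first minus the fifth Mb within bins of like gene number. Mean log2 CPM then differed by 0.17 to 0.21 in gH2AX libraries, 0.19 to 0.20 in H2AX libraries and 0.085 to 0.093 in input libraries. The part of gene number in the fall with distance was not tested.

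**Figure D3:**
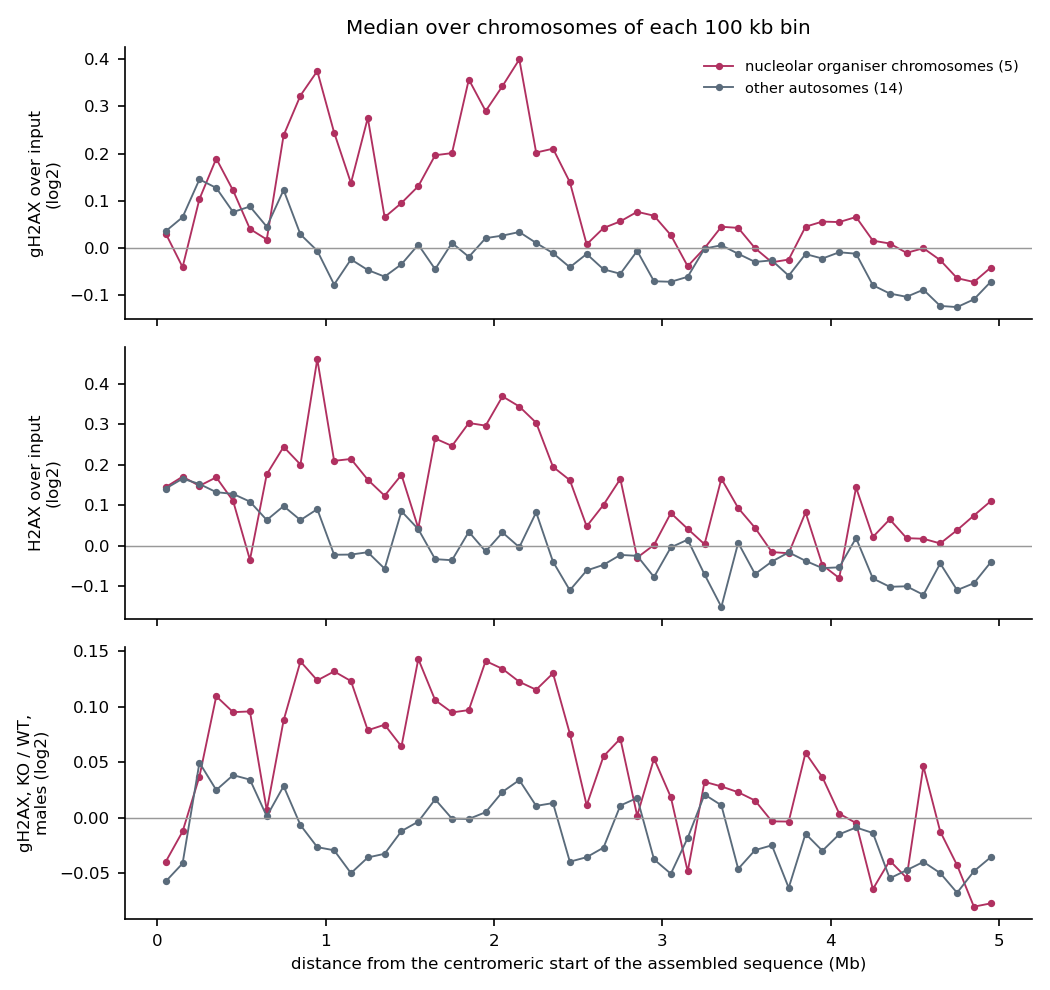
Median log2 ratio over chromosomes at each 100 kb bin (y axis) against distance in Mb from the start of the assembled sequence (x axis), for gH2AX over input, H2AX over input and gH2AX KO against WT in males, with nucleolar organiser chromosomes and the other autosomes as separate lines. The nucleolar organiser line stands furthest above the other between about 1 and 3 Mb, where its band medians are 0.20 and 0.12 for gH2AX, 0.20 and 0.18 for H2AX, and 0.098 and 0.075 for the KO change in males.

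Within libraries, mean log2 CPM in the first Mb minus that in the fifth averaged 0.264 ± 0.018 in gH2AX libraries, 0.278 ± 0.005 in H2AX libraries and 0.128 ± 0.004 in input libraries (SD, n = 8 libraries each). The gH2AX values were 0.256 and 0.255 in KO females, 0.267 and 0.268 in WT females, 0.290 and 0.290 in KO males, and 0.251 and 0.238 in WT males, all above the input range of 0.124 to 0.134. The excess over input was 0.136 for gH2AX and 0.150 for H2AX (exact permutation p = 1.55e-04 for both), and the difference of gH2AX minus H2AX, -0.014, did not pass the test (p = 0.0606) except when either KO male gH2AX library was left out (-0.017) or when bins of very high or low input were (-0.017, p = 0.0354). Ratios of summed reads turned all 3 signs round, to -0.084 for gH2AX minus input, -0.163 for H2AX minus input and 0.079 for gH2AX minus H2AX. The first bin of chromosome 9 alone held 1.139% of the reads of a library on average over the 24 libraries, and weighs more in sums than in means of log2 values. The slope also differed among chromosomes: the rank correlation of gH2AX over input with distance ran from -0.78 on chromosome 5 to 0.34 on chromosome 14 (about 50 adjoining bins each), and for H2AX it was most negative on chromosome 8 (-0.89). Over all 947 bins rho was -0.25 for gH2AX and -0.23 for H2AX.

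Set against the rest of the autosomes, the proximal bins had a mean log2 CPM that was 0.105 higher for gH2AX, 0.096 higher for H2AX and 0.082 higher for input. The excess over input of 0.023 for gH2AX and 0.014 for H2AX had exact permutation p = 1.55e-04 in both cases, and gH2AX exceeded H2AX by 0.0092 (p = 3.11e-04). These small differences depended on how bins were weighted: with summed reads they were -0.026, -0.044 and 0.018. The median bin moved less, with H2AX minus input at 0.0042.

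Relative to H2AX, gH2AX near the centromeres showed no common direction, with 354 bins higher and 375 lower of 947 and a median of -0.0068, where 75.1% of all bins of the genome differed, 38.5% higher and 36.6% lower. Chromosomes differed strongly. On chromosome 14, 0 bins were higher and 47 of 50 lower, with a median of -0.22, and on chromosome 3, 36 were higher and 7 lower, with a median of 0.13. Chromosome 14 had gH2AX near input (median 0.023) and H2AX well above it (0.24, 49 of 50 bins higher). Its proximal bins hold families of near-identical genes. Of its 105 genes with a promoter sequence, 98 (93.3%) share a word of 40 bases with the promoter of another gene that does not overlap it, against 75 of 897 (8.4%) in the other proximal bins and 2262 of 25792 (8.8%) in the rest of the genome, and Gm8108 and Lamtor3-ps above are such a pair. Of the 32 proximal bins with more than 2 times the median input, 23 lie on chromosome 14. The pair of Gm8108 and Lamtor3-ps was picked from such bins for its likeness. Its input, 3.04 and 2.76 times the median, is thus no separate evidence that links copies to high input. Reads from such copies cannot be assigned to one bin with certainty, and how multiply aligned reads were treated is not given in the sources used here.

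One of these bins, chr14:3800001-3900000 with Gm3050, was among the 5 lowest in gH2AX over H2AX, at -0.30 ± 0.02. Its gH2AX was 81.4 and 79.0 CPM in KO females, 79.3 and 78.9 in WT females, 81.8 and 79.7 in KO males, and 80.0 and 81.6 in WT males, against an H2AX between 95.5 and 102.0 CPM in all 8 libraries. The other 4 of the lowest lay on chromosome 16. Of these, 2 overlapped Rbfox1, a very long gene with the CG-poor promoter printed above, and 2 lay upstream of it. The promoter is near the distal end of its bin, so most of that bin is upstream of the promoter. In the bin with this promoter (chr16:5800001-5900000, -0.33 ± 0.02), gH2AX was 33.4 and 37.1 CPM in KO females, 34.4 and 35.4 in WT females, 35.3 and 35.1 in KO males, and 36.5 and 37.5 in WT males. H2AX there was 43.2 to 46.0 CPM and input 31.8 to 34.0 CPM, so H2AX stood apart from both, and gH2AX overlapped input only at its lowest library.

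The first bin of each chromosome, the one nearest the satellite DNA, mostly had less gH2AX than H2AX relative to input, and so did the next. Among 17 fitted first bins, gH2AX over input was higher in 8 and lower in 4, with a median of 0.033, whereas H2AX over input was higher in 15 and lower in 1, with a median of 0.15. Over all bins of the genome 41.5% were higher and 45.2% lower in gH2AX, and 44.9% and 44.5% in H2AX. The number of first bins higher in gH2AX was thus near the share over all bins. The ratio of gH2AX to H2AX was lower in 14 and higher in 1, with a median of -0.11, where 36.6% of all bins were lower and 38.5% higher. In the second bins the medians over input were 0.064 for gH2AX and 0.17 for H2AX. The exception among the first bins in the counts for H2AX over input and gH2AX over H2AX was chromosome 9, with an H2AX over input of -0.35 and a gH2AX over H2AX of 0.11. The highest gH2AX over input among the first bins was 0.47 on chromosome 17, followed by 0.22 on chromosome 4 and 0.21 on chromosome 18.

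Some proximal bins collect reads far beyond the rest. The first bin of chromosome 9 (chr9:3000001-3100000), with Mir101c, had 367.8 times the median input and, on average over the 24 libraries, 1.139% of the reads, and chr12:3100001-3200000 had 50.08 times the median. Both were lower in immunoprecipitated than in input chromatin. The chromosome 9 bin had a gH2AX over input of -0.24 and an H2AX over input of -0.35, and the chromosome 12 bin -0.39 ± 0.01 and -0.63 ± 0.01. The bin with Sfi1 (chr11:3100001-3200000), a centrosome gene, had 21.78 times the median input and was higher in both, at 0.38 for gH2AX and 0.49 for H2AX.

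Loss of SIRT7 was associated with a change of gH2AX near the centromeres that differed between the sexes. In males, KO against WT, gH2AX was higher in 223 and lower in 136 of 947 bins, beside 44.7% of all bins called in that comparison, 22.4% higher and 22.2% lower. On nucleolar organiser chromosomes 99 bins were higher and 18 lower, with a median log2 change of 0.053, and on the other autosomes 124 were higher and 118 lower, with a median of -0.020. In the rest of the autosomes 5448 were higher and 5213 lower (median -0.0029). In females 4 bins were higher and 7 lower, beside 1.01% of all bins, 0.416% higher and 0.595% lower, and 2 of each direction lay on nucleolar organiser chromosomes. The KO effect itself differed between females and males in 324 bins (127 higher and 197 lower in females minus males), beside 40.5% of all bins, 20.1% higher and 20.4% lower. Of the bins on nucleolar organiser chromosomes 23 were higher and 81 lower in that test, against 104 and 116 on the other autosomes.

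The number of male bins rested partly on 1 library, falling to 234 without the second WT male gH2AX library. Within libraries the contrast of nucleolar organiser and other chromosomes, given above, was higher in both KO males than in both WT males, by 0.051, and lower in both KO females than in both WT females, by 0.013. With 2 libraries against 2, no exact permutation p can fall below 0.333, and pooled over sexes the KO minus WT difference of 0.019 did not pass (4 against 4 libraries, exact permutation p = 0.2, adjusted 0.327). The order of the groups was the same in most of the values here: KO males highest, then WT females, then KO females and WT males, so that KO females lay close to WT males and WT females close to KO males.

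In males the proximal bins of chromosome 19 changed most, with 36 of 49 bins higher and 2 lower in KO, and a median of 0.13. Their median log2 ratio of gH2AX to input was 0.338 and 0.299 in KO females, 0.431 and 0.372 in WT females, 0.426 and 0.408 in KO males, and 0.305 and 0.281 in WT males. The KO and WT libraries did not overlap in either sex, and they lay in opposite order, while the same median for H2AX was 0.359 to 0.392 in all 8 libraries. Chromosome 11 (27 higher and 0 lower, median 0.088), chromosome 17 (23 and 1, 0.066) and chromosome 2 (19 and 2, 0.071) followed in males. The other nucleolar organiser chromosomes had smaller medians, of 0.039 on chromosome 12 (18 higher and 6 lower), 0.026 on chromosome 15 (14 and 3), 0.026 on chromosome 18 (14 and 0) and 0.022 on chromosome 16 (17 and 7). Chromosome 1 went the other way, with 1 higher and 26 lower (median -0.091), and so did chromosome 8, with 7 and 19 (median -0.082).

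The male change fell with distance on nucleolar organiser chromosomes. Their medians over the 5 successive Mb were 0.065, 0.098, 0.075, 0.016 and -0.046, with 24, 31, 24, 10 and 10 bins higher in KO and 4, 3, 0, 4 and 7 lower. On the other autosomes the medians were -0.013, -0.014, -0.0004, -0.027 and -0.035. Over the 249 bins of nucleolar organiser chromosomes the rank correlation of the male change with distance was -0.31, and over all 947 bins -0.17. Within libraries, the first Mb minus the fifth was 0.290 in KO males and 0.244 in WT males, and 0.256 in KO females and 0.267 in WT females.

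**Figure D4:**
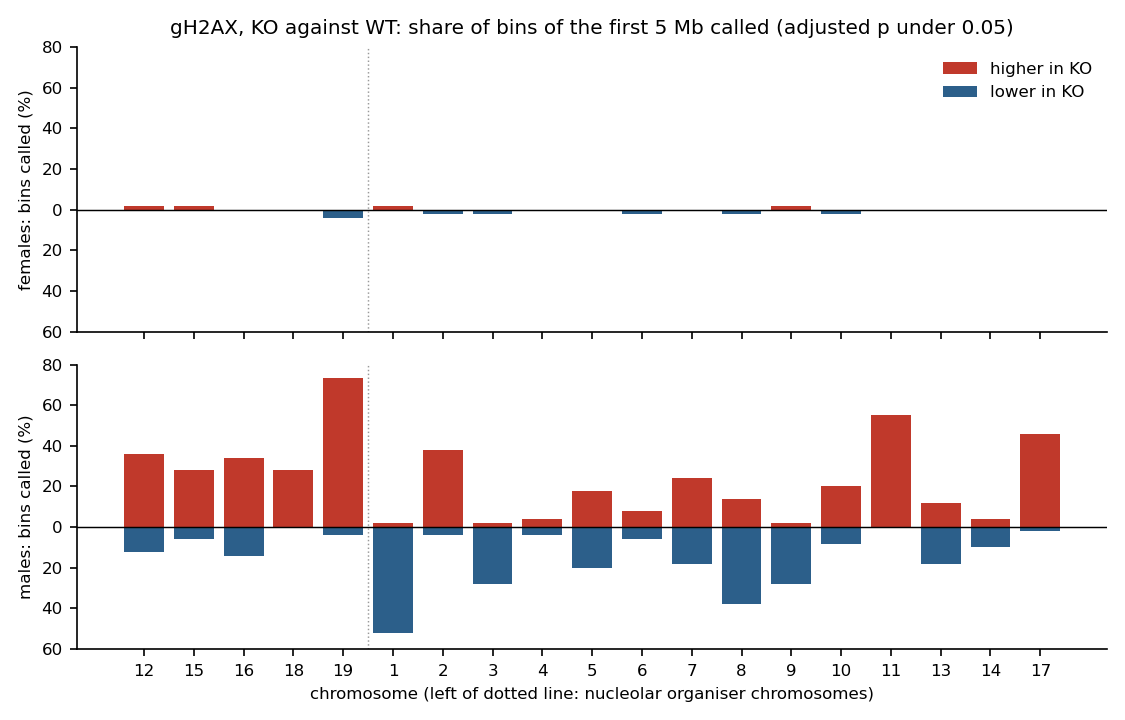
Share of proximal bins (%, y axis) of each chromosome in which gH2AX differed between KO and WT at an adjusted p under 0.05, higher in KO above the 0 line and lower below it, in females (top) and males (bottom), with nucleolar organiser chromosomes left of the dotted line. In males chromosome 19 has 36 of 49 bins higher and chromosome 1 has 26 of 50 lower, and in females no chromosome has more than 2 differing bins.

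The male change also followed gene number and promoter class, in the order in which gH2AX over input does. Its median was -0.039 in bins with no protein-coding gene, 0.023 with 1, 0.051 with 2, 0.095 with 3 to 4 and 0.13 with 5 or more. In the 193 bins with a CG-rich promoter, 104 were higher and 2 lower in KO males (median 0.091), beside 2499 higher and 90 lower of 4755 in the rest of the autosomes (median 0.086), and on nucleolar organiser chromosomes 56 of 71 such bins were higher and 0 lower (median 0.13). Within the 5 classes of gene number the nucleolar organiser bins had the higher medians, of -0.0019, 0.059, 0.11, 0.13 and 0.13, against -0.046, 0.015, 0.011, 0.077 and 0.11 on the other autosomes. In females the rank correlation of the KO change with gene number had the opposite sign, -0.31, against 0.41 in males, and in the rest of the autosomes it was -0.29 and 0.43.

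Because the change followed enrichment, it was refitted after a smooth trend of each gH2AX library on the enrichment of the bin had been taken out. In males 16 of 947 bins then differed, 9 higher and 7 lower, of which 13 were among the 359. In the rest of the autosomes 215 were higher and 163 lower of 23085, a share close to that of the proximal bins. On nucleolar organiser chromosomes 4 were higher and 1 lower with a median of 0.0089, and on the other autosomes 5 and 6 with a median of -0.0020. In females 4 bins remained past the threshold, beside 18 higher and 37 lower in the rest of the autosomes. The KO effect differed between the sexes in 10, beside 90 higher and 118 lower in the rest. Relative to bins of like enrichment, the nucleolar organiser chromosomes thus stood apart little. When the change of the input was subtracted, 155 male bins differed, 149 of them among the 359. Both fits use the same male gH2AX counts, so much of this overlap is built in. The share over all bins is not given here for this comparison, so the number is a description of the proximal bins alone.

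The bins that changed in both sexes were few, and they changed in opposite directions. Bin chr3:5800001-5900000, with no annotated protein-coding gene, had the highest gH2AX of all proximal bins, 1.66 ± 0.02 over input (3.15-fold) and 2.00 ± 0.02 over H2AX on the log2 scale. Its gH2AX was 143 and 133 CPM in KO females, 206 and 197 in WT females, 210 and 202 in KO males, and 133 and 128 in WT males. H2AX was 39.7 to 43.6 CPM and input 50.2 to 54.1 CPM, so every gH2AX library stood well above both, and KO and WT did not overlap in either sex. The KO change was -0.54 ± 0.03 in females and 0.66 ± 0.03 in males (adjusted p = 2.44e-68 and 1.21e-101), and the effects differed by -1.20 ± 0.04 (adjusted p = 6.06e-169). The bins on either side had a gH2AX over input of -0.11 and -0.10 and did not change in KO. With the trend removed the changes were -0.24 in females and 0.11 in males.

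Bin chr2:5300001-5400000, within Camk1d, a calcium-dependent kinase, behaved alike at a lower level, with a gH2AX over H2AX of 0.48 ± 0.02. Its gH2AX was 56.8 and 57.4 CPM in KO females, 68.2 and 69.1 in WT females, 73.5 and 71.1 in KO males, and 56.3 and 56.6 in WT males, again without overlap of KO and WT in either sex. The changes were -0.27 ± 0.03 in females and 0.36 ± 0.03 in males (adjusted p = 6.94e-12 and 2.50e-23), and -0.20 and 0.17 with the trend removed. Bin chr6:3200001-3300000, without a protein-coding gene, had 58.1 and 58.6 CPM in KO females, 64.8 and 69.1 in WT females, 69.1 and 69.3 in KO males, and 56.9 and 55.8 in WT males. It changed by -0.20 ± 0.03 in females and 0.30 ± 0.03 in males (adjusted p = 4.33e-06 and 1.36e-15). The male change of this bin was lost with the trend removed (0.10, adjusted p = 0.0642), while the female change still passed (-0.13, adjusted p = 0.0132).

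Bins chr9:3000001-3100000 and chr12:3100001-3200000, both of very high input, went the other way. The bin with Sfi1, also of very high input, was not called lower in KO males. Its change in males was -0.13 with the trend removed, which passed the threshold. Bin chr9:3000001-3100000 had a gH2AX of 12550 and 12920 CPM in KO females, 10960 and 11200 in WT females, 9991 and 10340 in KO males, and 11950 and 12460 in WT males, so KO was above WT in females and below it in males. The changes were 0.20 ± 0.02 and -0.26 ± 0.02 (adjusted p = 7.96e-17 and 1.43e-29). Bin chr12:3100001-3200000 had 1492 and 1543 CPM in KO females, 1385 and 1431 in WT females, 1229 and 1291 in KO males, and 1471 and 1475 in WT males. Its changes of 0.11 ± 0.03 in females and -0.22 ± 0.03 in males fell short of the threshold once the trend was removed (0.016 and -0.021), and in males its H2AX and input were lower in KO too, by -0.14 ± 0.03 and -0.081 ± 0.018. Neither the H2AX nor the input call passed in DESeq2 (adjusted p = 0.687 and 0.897). For comparison, the bin with the ribosomal RNA sequence Rn18s-rs5 on distal chromosome 17 had a gH2AX over input of 3.38 and KO changes of -0.68 in females and 0.82 in males.

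**Figure D5:**
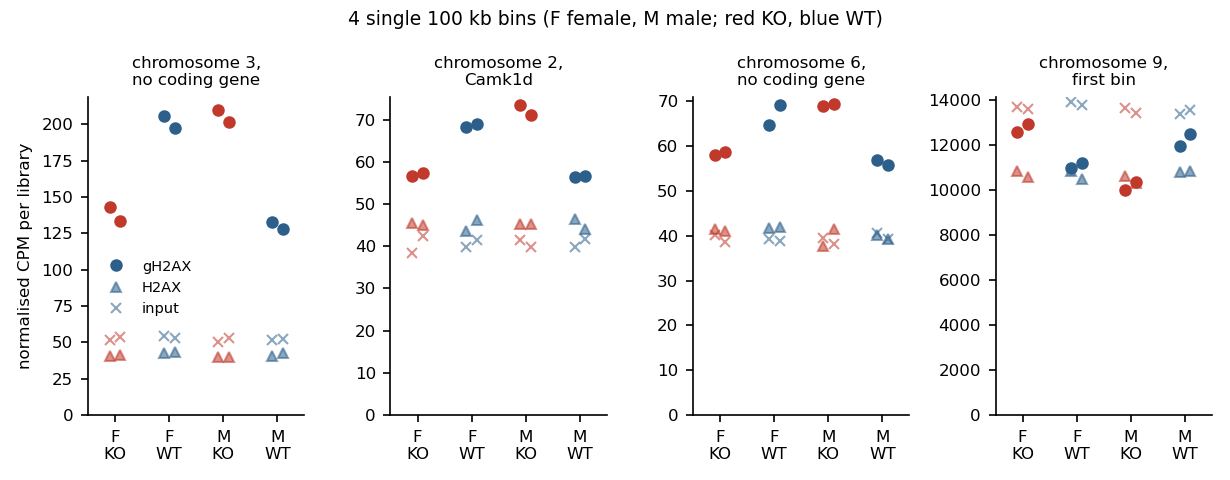
Normalised CPM (y axis, from 0) of gH2AX (circles), H2AX (triangles) and input (crosses) in 4 single bins, with 1 point per library, KO in red beside WT in blue for females (F) and males (M). In the chromosome 3 bin gH2AX lies at 143 and 133 in KO females and 206 and 197 in WT females, and at 210 and 202 in KO males and 133 and 128 in WT males.

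Among bins with genes on nucleolar organiser chromosomes, the largest male changes were in the bin with Lrp5, a Wnt co-receptor (chr19:3600001-3700000, 0.26 ± 0.03), and in a bin within Klhl29 (chr12:5300001-5400000, 0.26 ± 0.04). The Lrp5 bin had 54.8 and 53.5 CPM in KO females, 59.4 and 56.5 in WT females, 62.2 and 60.0 in KO males, and 51.9 and 49.9 in WT males, and KO and WT libraries did not overlap in either sex. With the trend removed the Lrp5 change was 0.081 and no longer passed, whereas the Klhl29 bin kept 0.15. Lower in KO males were the bins chr7:5900001-6000000 (-0.21 ± 0.04) and chr9:4500001-4600000 with the glutamate receptor gene Gria4 (-0.20 ± 0.04).

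In females, changed bins besides these were higher at Plcxd3 on chromosome 15 (0.16 ± 0.04) and Rp1, a photoreceptor gene on chromosome 1 (0.15 ± 0.04), and lower at Insr, the insulin receptor gene on chromosome 8 (-0.15 ± 0.04). All 3 of these calls were lost with the trend removed and with the change of input subtracted. The female number of 11 fell to 4 without the second KO female gH2AX library and to 5 without the first WT female one.

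The change of gH2AX relative to H2AX gave the same picture with fewer bins. In males 164 were higher and 90 lower in KO, beside 30.1% of all bins, 15.9% higher and 14.3% lower, with 70 and 16 on nucleolar organiser chromosomes and 94 and 74 on the others. Without the second WT male gH2AX library, 163 differed in all. In females 4 bins differed, beside 0.237% of all bins, and 7 or 9 did without the first KO female or the second WT female gH2AX library. The female and male effects differed in 233 bins, beside 28.4% of all bins, 13.4% higher and 15.1% lower, with 10 higher and 75 lower on nucleolar organiser chromosomes.

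H2AX and input themselves changed in hardly any proximal bin. H2AX differed in 1 bin in females and 3 in males, beside 0.152% and 0.191% of all bins, and the effects differed in 4 bins, beside 0.272%. DESeq2 called 0 in each of the 3 comparisons, with 27, 43 and 40 bins at an unadjusted p under 0.05, against 51, 61 and 54 in edgeR. Input differed in 0 bins in females (68 at an unadjusted p under 0.05 in edgeR, and 39 in DESeq2, which also called 0) and in 3 in males, beside 0.183% and 0.222% of all bins, and the effects differed in 3, beside 0.261%. The input calls in males fell to 0, and those of the sex difference to 1, without the first WT male input library.

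The bin that changed most in H2AX was that of Tiam2 (chr17:3300001-3400000). Its H2AX was 68.4 and 71.5 CPM in KO females, 75.2 and 83.9 in WT females, 71.7 and 86.5 in KO males, and 63.6 and 66.7 in WT males, so KO was below WT in females and above it in males, with replicates far apart in 2 of the groups. The changes were -0.19 ± 0.04 in females and 0.27 ± 0.04 in males (adjusted p = 0.00248 and 2.06e-06), and the input of this bin was higher in KO males as well, by 0.12 ± 0.03. The calls were lost in DESeq2 and when the change of input was subtracted. H2AX calls also moved with single libraries: the 1 female call was lost without the first KO female or the second WT female H2AX library. The 3 male calls became 10 without the first KO male library and 1 without the second KO female, the second KO male or either WT male library. The 4 calls of the sex difference became 7 without the first KO male library, 2 without the second KO female, and 1 without the first KO female, the second WT female, the second KO male or the first WT male library.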

How the data were processed

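H2AX and gH2AX immunoprecipitates and input chromatin were sequenced by the authors, and the deposited table holds whole-number read counts per 100 kb bin of mm10. The submitters' processing notes name Bowtie2 2.2.9 among the tools, beside MACS2 2.2.7.1 and deepTools 2.4.2, with Trimmomatic 0.36 and FastQC 0.11.3 for reads. The handling of duplicates and of multiply aligned reads is not given in the sources used here, and it bears on bins of repeated sequence. Another 24 columns of the table matched no label and were not used.

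Counts were fitted with edgeR 4.0.16 in R 4.3.3 (quasi-likelihood F-test, filterByExpr, TMM factors from autosomal bins), with 8 libraries per antibody for KO against WT and 24 libraries for ratios between antibodies, which were averaged over the 4 groups of sex and genotype. P-values were adjusted by Benjamini and Hochberg over all bins fitted, with a threshold of 0.05, and the fits were tested on simulated data. A log2 ratio of 0 is the autosomal average, so ratios show relative, not absolute, amounts. Contrasts between sets of bins were taken per library (mean log2 CPM) and compared by two-sided exact permutation tests. Medians, correlations and counts over bins are descriptions. DESeq2 1.42.0, other scaling, filters, summaries and left-out libraries were alternatives. Bins named were, in each comparison, the 5 with the largest change in each direction past the threshold, the first bin of each chromosome, and the chromosomes with the highest and lowest medians. Other chromosomes and the bins of Sfi1, Gm8108, Lamtor3-ps, Sirt7 and Rn18s-rs5 were named after their values were seen. Not every bin this rule picks is described here. The members and lists were chosen with earlier results of these data known. Gene positions and sequences came from RefSeq GRCm38.p6. Python 3.11.15, pandas 2.3.3, SciPy 1.17.1 and Matplotlib 3.10.9 were used for summaries.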

Additional observations from a re-analysis of the deposited data

Results flagged for a closer look

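Each result here differed between the sexes by an interaction term in edgeR's quasi-likelihood test, and values are the KO effect in females minus that in males on the log2 scale. Groups had 2 libraries each, too few to look for a library far from the others.

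For gH2AX, 324 of 947 proximal bins differed, beside 40.5% of all bins. The female effect was the higher one at chr9:3000001-3100000 (0.46), chr12:3100001-3200000 (0.33), the Rp1 bin (0.30) and Xkr4 bin (0.29) of chromosome 1 and the Hnf4g bin of chromosome 3 (0.29). It was the lower one at chr3:5800001-5900000 (-1.20), the Camk1d bin of chromosome 2 (-0.62), chr6:3200001-3300000 (-0.49), the Lrp5 bin of chromosome 19 (-0.36) and the chromosome 8 bin with Arhgef18, Tex45 and Pex11g (-0.33). With the trend on enrichment removed 10 bins differed, and the bins of chromosomes 2, 3, 6 and 9 were among them, at -0.37, -0.36, -0.23 and 0.27.

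For gH2AX relative to H2AX, 233 bins differed, beside 28.4% of all bins. The female effect was higher at 2 aldo-keto reductase bins of chromosome 13, one with Akr1c19, Akr1c12 and Akr1c13 (0.42) and one with Akr1c6 and Akr1c20 (0.41), at chr9:3000001-3100000 (0.41) and chr9:5600001-5700000 (0.36), and at the bin with Slc22a27, an organic anion transporter gene, on chromosome 19 (0.35). It was lower at chr3:5800001-5900000 (-1.19), Camk1d (-0.63), chr6:3200001-3300000 (-0.49), Lrp5 (-0.43) and the chromosome 12 bin with Adcy3, Dnajc27 and Cenpo (-0.38).

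For H2AX, 4 bins differed: chr12:3100001-3200000 (0.20), the Tiam2 bin of chromosome 17 (-0.46), the chromosome 7 bin with Pira1, Pirb and Rps9 (-0.29), which has 0.448 times the median input, and the bin with Akr1c6 and Akr1c20 (-0.25). For input, 3 bins differed: chr12:3100001-3200000 (0.13), chr15:3700001-3800000 (-0.21) and the Tiam2 bin (-0.19). In DESeq2 the input calls of the chromosome 12 and Tiam2 bins were lost (adjusted p = 0.373 and 0.116), and that of the chromosome 15 bin stayed (0.0214). In that chromosome 15 bin input was 39.4 and 39.0 CPM in KO females, 40.6 and 41.3 in WT females, 40.1 and 41.2 in KO males, and 36.2 and 37.2 in WT males, so that only the WT males stood apart.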

How the results depend on the processing

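Numbers of proximal bins called kept within 1.5 times under other scaling, no filter and DESeq2, except that DESeq2 called 11 in gH2AX over H2AX, KO against WT, in females (4 in edgeR) and 0, 0 and 0 for H2AX in females, males and their difference. Removing the trend on enrichment left 4, 16 and 10 for gH2AX in females, males and their difference. Subtracting input left 7, 155 and 185 for gH2AX and 0, 0 and 0 for H2AX. Leaving out bins of high or low input gave 2 for the H2AX difference and 1 for male input. The replicate block gave 14, 395 and 348 for gH2AX and lost no named bin. Within 1 antibody or input, same-numbered libraries of different sex or genotype did not deviate together (correlations -0.031 to 0.063). Whether same-numbered gH2AX, H2AX and input libraries of a group belong together was not examined. Of 2181 values for named bins under alternatives, 2075 stayed on their side of the threshold, 106 lost it and 0 reversed. Leaving out 1 library at a time gave 4 to 14 (females) and 234 to 375 (males) for gH2AX, 3 to 9 and 163 to 257 for gH2AX over H2AX, 0 to 1, 1 to 10 and 1 to 7 for H2AX in females, males and their difference, and 0 to 3 and 1 to 4 for input in males and the difference.

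For nucleolar organiser against other chromosomes, gH2AX minus H2AX was -0.0085 with summed reads and -0.0097 without chromosome 16, and input KO minus WT was -0.0011 with medians. For the first minus the fifth Mb, sums gave -0.0843 (gH2AX minus input), -0.163 (H2AX minus input), 0.0787 (gH2AX minus H2AX), -0.0092, -0.0109 and -0.0029 (KO minus WT for gH2AX, H2AX and input), gH2AX minus H2AX was -0.0173 without extreme input bins, and -0.0173 to -0.0099 without single libraries. For proximal bins against the rest, sums gave -0.0262, -0.0438, 0.0176, -0.0032, -0.0027 and -0.00029 in the same order, medians 0.0042 for H2AX minus input and -0.0058 for H2AX KO minus WT. The last was -2.53e-05 without extreme input bins and ran from -0.0013 to 0.0030 without single libraries, with a negative sign without either KO female (-0.0011, -0.0013) or WT male library (-0.00093, -0.00063). The cause of these changes was not tested.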

Other observations

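Families of related genes lie in the proximal bins. The 27 bins with vomeronasal receptor genes, which encode pheromone receptors, had a median gH2AX over input of -0.051 (7 higher and 16 lower) and a median H2AX over input of 0.092 (19 higher and 4 lower). Over all bins of the genome 41.5% were higher and 45.2% lower in gH2AX, and 44.9% and 44.5% in H2AX. In gH2AX over H2AX 0 of the 27 were higher and 24 lower (median -0.14), where 38.5% and 36.6% of all bins were. The 22 bins with ribosomal protein genes had a median gH2AX over input of 0.22, with 16 higher and 4 lower, and in gH2AX over H2AX 9 were higher and 8 lower (median 0.0056). The 21 bins with zinc finger genes had a median gH2AX over input of 0.074, with 13 higher and 8 lower, and in gH2AX over H2AX 9 were higher and 6 lower (median 0.036). Many bins of a family adjoin each other, so they are not independent, and the values are descriptions.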
